A study of Mus musculus with 18 samples.

Results

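TCell4 is a cluster of 296 T lineage cells found in the bone marrow (BM) of mouse embryos at embryonic day 16.5 (E16.5). The cells were chosen by 3 entries of the authors' deposited cell table, which had to place a cell in the hematopoietic compartment, in the second E16.5 library of hematopoietic progenitors (HPs) and in the cluster code TCell4. They were 296 of the 4752 cells of that library (6.23%, 5.56 to 6.95%), 13.8% of its 2141 cells in 6 T clusters, and part of 56201 cells in the series. Numbers in parentheses after a share, level or ratio are exact 95% intervals, which cover counting error only. The authors made the clusters from the same transcripts, so the RNA differences given here describe the clusters and were not tested.

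Transcripts and surface proteins of single BM cells were measured together (CITE-Seq, in which antibodies carry sequence tags) in C57B6/J mice at E16.5, E18.5, postnatal day 0 (P0) and in the adult. HPs were sorted as CD45+Lineage-c-Kit+ cells, which excludes most mature blood cells by their surface antigens, and no mutation or treatment is named for the mice. Each library was a pool of several embryos or mice, most of them at E16.5, so values of single animals cannot be told apart. There were 2 HP libraries at E16.5 and 1 at each other stage, 5 in all.

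TCell4 was seen in only 1 of these libraries. The first E16.5 library held 560 cells, of which 0 were TCell4. With a count of 0 set at a floor of 3 cells the share was 0.536%, which is not an exact interval. T cells as a whole were rare there, with 18 cells in T clusters among the 560 and 65 to 109 in each later library, against 2141 of 4752 in the second E16.5 library. The libraries of E18.5, P0 and the adult also held 0 TCell4 cells. The paper describes clusters found in each HP library, so an E16.5 code need not recur at another stage. Marker transcripts were scarce in the libraries without TCell4 cells too. Ptcra, a given marker of the cluster, gave 2 unique molecular identifiers (UMIs, which count captured RNA molecules) in the first E16.5 library, or 0.143 CPM. It gave 84 to 262 UMIs (1.42 to 2.06 CPM) in the adult, E18.5 and P0 libraries, against 140.8 CPM in the second E16.5 library. Rag1, which B progenitors also use, was at 9.52 to 11.5 CPM in these 4 libraries and 86.3 CPM in the second E16.5 library. CPM scales the UMIs of a gene, summed over a group of cells, to a fixed total, so that groups of different depth can be compared. Cells with at least 2 UMIs of both Ptcra and Cd3d were 1266 in the second E16.5 library, 1 at P0 and 0 in the first E16.5, the E18.5 and the adult library. What follows therefore describes 1 library, without a replicate. TCell4 cells had a median of 20350 UMIs (lowest 6649, highest 53758) and 4306 genes, where the median of the library was 18831 UMIs. No TCell4 barcode recurred in the first E16.5 library, and 5 recurred in any of the other libraries.

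T cells are made in the thymus from blood-borne progenitors that pass through CD4-CD8- stages, during which Kit and stem cell genes are switched off and the T cell receptor loci are cut and joined by the Rag1 and Rag2 recombinase. At the pre-T stage (DN3) a newly joined β chain pairs with the invariant pre-Tα chain, encoded by Ptcra, and with the CD3 proteins, and the signal of this pre-T cell receptor is known to start a burst of division. γ and δ chains are joined at about the same stage, the α chain later. In the mouse fetus the first thymocytes arise in waves that use particular γ variable segments.

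The sequence before the Ptcra start site is shown because Ptcra is a given marker of TCell4 and because E proteins, which drive this stage, bind the E-box letters CANNTG. Ptcra lies on chromosome 17 at 46755663 to 46763712 of GRCm38.p6 on the minus strand, and the 250 bases upstream of its start (chr17:46763713-46763962, RefSeq) read as follows, 5′ to 3′ on the gene's strand, with E-boxes in capitals.

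Ptcra: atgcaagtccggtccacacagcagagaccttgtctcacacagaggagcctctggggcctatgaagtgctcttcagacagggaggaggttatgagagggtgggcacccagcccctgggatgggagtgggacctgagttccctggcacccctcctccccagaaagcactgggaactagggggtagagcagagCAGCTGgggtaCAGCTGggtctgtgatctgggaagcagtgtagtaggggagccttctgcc

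The window held 2 E-boxes, at 60 to 55 and at 49 to 44 bases before the start. E-boxes were searched on both strands and stood in 66.2% of 32851 windows of the same length in the RefSeq table, so their presence is common. Of the 16 pre-T list genes, 14 had a window, and 8 of these (57.1%) held an E-box.

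The marker genes were present in TCell4 as its label requires. Ptcra reached 599.02 CPM (580.37 to 618.12) in TCell4, 525.81 in TCell1, 212.78 in TCell6, 80.18 in TCell3, 51.12 in TCell2 and 4.47 in TCell5. Its intervals did not overlap between any of these clusters, and TCell4 was 3.07-fold (2.96 to 3.19) above the other 5 T clusters summed. Cd3d, which encodes the CD3 δ chain and lies on chromosome 9 at 44981769 to 44987052, followed the same top 3, with 1263.63 CPM in TCell4, 1044.11 in TCell1 and 967.46 in TCell6, against 136.12 to 251.35 in the rest. Trgv2 is a γ variable segment on chromosome 13 at 19336573 to 19337026, and its 168 UMIs in TCell4 gave 25.80 CPM (22.05 to 30.01). TCell6 had 24.06 CPM of Trgv2 (19.77 to 28.99), which overlapped TCell4, while TCell1 had 16.77, TCell5 4.47, TCell3 2.34 and TCell2 0.09. Outside the T clusters Ptcra was at 27.67 CPM and Cd3d at 66.74, 21.65-fold and 18.93-fold below TCell4.

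**Figure D1:**
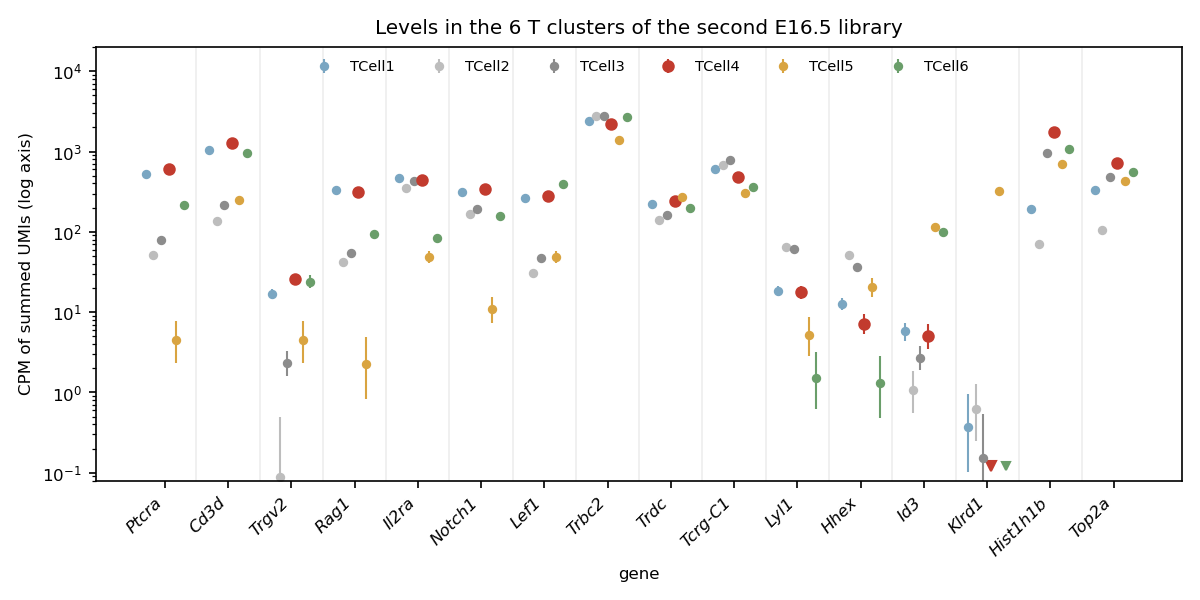
Level of 16 genes in the 6 T clusters, as CPM of the summed UMIs of a cluster on a log axis. Points are clusters, bars are exact Poisson 95% intervals, and triangles mark 0 UMIs. TCell4 (red) stood highest for Ptcra at 599.02 CPM, Cd3d at 1263.63 CPM and Hist1h1b at 1725.18 CPM, and low for Lyl1 (17.66 CPM) and Hhex (7.22 CPM).

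Genes were counted as measured where they reached 10 CPM in either group and 50 UMIs in both together, and as higher or lower where they differed at least 2-fold with the interval of the ratio on that side of 1. Against the other T clusters summed, 7523 genes were measured, of which 118 (1.57%) were higher and 92 (1.22%) lower in TCell4. These background shares stand beside each list below. A gene under 10 CPM in one group was measured only through the other and could lie only on that side, as did 43 of the 118 higher and 59 of the 92 lower genes. In the T lineage, commitment, CD8 and CD4+CD8+, γδ, innate lymphoid and cytotoxic lists every lower gene was of this kind.

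The pre-T list held 14 measured genes, of which 5 were higher and 0 lower, with a median ratio of 1.78 against 0.964 over all measured genes. The 5 were Ptcra, Cd3d, Trgv2, Rag1 and Spib, of which the first 3 are the cluster's given markers, and Trgv2 and Spib were under 10 CPM in the other T clusters. Rag1, which makes the recombinase with Rag2, was at 315.48 CPM in TCell4 and 334.98 in TCell1, against 93.82 in TCell6, 54.41 in TCell3, 42.10 in TCell2 and 2.23 in TCell5. Spib, an Ets factor of early lymphocytes, was at 17.20 CPM in TCell4 and 22.70 in TCell1, and at 0.74 to 5.47 in the other 4 clusters. TCell4 and TCell1 thus shared the top of both genes. Rag2 was at 73.88 CPM in TCell4, under the 105.61 of TCell1, and its ratio of 1.33 to the other T clusters did not reach 2-fold. Il2ra, which encodes the CD25 antigen of this stage, was at 436.52 CPM in TCell4, between 353.61 and 462.35 in TCell1 to TCell3, and at 82.88 and 49.15 in TCell6 and TCell5. Dntt, which adds bases at the joints and is known to be nearly silent before birth, was at 1.54 CPM.

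Notch signalling drives T commitment, and TCell4 held its receptor Notch1 at 340.98 CPM, the highest of the 6 clusters, where TCell1 had 310.98, TCell3 194.76, TCell2 167.52, TCell6 155.92 and TCell5 10.80. Its target Dtx1 was at 133.47 CPM in TCell4 and 130.25 in TCell1, and its target Hes1 at 171.41 and 165.82. The ratios to the other T clusters were 1.69, 1.96 and 1.33, so 0 of the 12 measured Notch pathway genes was called either way. Nrarp, a feedback inhibitor of Notch, was at 28.57 CPM in TCell4 and higher in TCell2 at 49.00, with a ratio of 0.805.

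The T lineage list had 1 higher gene (Cd3d) and 1 lower gene (Cd2) among 16 measured, with a median ratio of 1.38. The CD3 genes Cd3e (472.00 CPM) and Cd3g (3332.10 CPM), the kinase Lck (485.98 CPM) and the selection gene Themis (115.35 CPM) stood 1.49 to 1.78-fold above the other T clusters. Cd2, an adhesion receptor, was at 4.61 CPM in TCell4, 62.11 in TCell6, 58.46 in TCell5, 6.21 in TCell1, 0.71 in TCell2 and 0.60 in TCell3. The receptor kinase Zap70 was at 11.21 CPM in TCell4, 55.11 in TCell6, 49.15 in TCell5, 15.56 in TCell1, 5.74 in TCell3 and 3.01 in TCell2. Id3, an inhibitor of E proteins that receptor signals are known to induce, was at 5.07 CPM in TCell4, 113.94 in TCell5, 100.16 in TCell6 and 1.06 to 5.74 in the other 3. In these genes TCell4 thus lay near TCell1, above TCell2 and TCell3 and below TCell5 and TCell6.

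Among T commitment factors, 1 of 19 measured was higher and 1 lower. Lef1 was at 277.55 CPM in TCell4 (ratio 2.06), next to 261.70 in TCell1 and under 398.01 in TCell6, while TCell2, TCell3 and TCell5 had 30.78 to 48.41. Bcl11b, which is needed for commitment, was at 466.93 CPM in TCell4 and 480.32 in TCell1. Tcf7, the first T factor induced by Notch, was at 356.50 CPM in TCell4, within the 198.10 to 550.43 of the other clusters. The lower gene was Id3. Of 9 measured recombination and repair genes, Rag1 was higher and 0 were lower. The repair gene Xrcc6 was at 284.92 CPM in TCell4 and 277.63 in TCell1, and at 30.91 to 202.94 in the other 4.

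Genes of early thymic progenitors (ETP/DN2) were mostly lower in TCell4 than in the other T clusters together, but not than in TCell6. Against TCell1 0 of 7 measured were called, though 3 were lower without the few cells rich in mast cell RNA described below. Without those cells 40 of all 7527 measured genes were lower than in TCell1. Against the other T clusters together, 7 of 10 measured were lower and 0 higher. Of these 7, 4 (Cd34, Hhex, Mef2c and Cd44) were under 10 CPM in TCell4 and so could come out only lower. Among the 6 genes over 10 CPM in both groups, 3 were lower (Lyl1, Spi1 and Bcl11a) and the median ratio was 0.536. The stem cell antigen Cd34 was at 5.84 CPM in TCell4, 36.17 in TCell2 and 28.94 in TCell3. Lyl1, a factor of stem and progenitor cells, was at 17.66 CPM in TCell4, 64.57 in TCell2 and 60.84 in TCell3. Spi1, the myeloid factor PU.1 that T progenitors silence, was at 13.36 CPM in TCell4, 66.51 in TCell2 and 47.39 in TCell3. In each of these genes TCell4 lay near TCell1, which had 6.48 CPM of Cd34, 18.53 of Lyl1 and 18.90 of Spi1, and above TCell6, which had 3.06, 1.53 and 2.62. Against TCell6, where 6.34% of genes were higher and 1.45% lower, 6 of 6 measured ETP/DN2 genes were higher in TCell4, 3 of them under 10 CPM in TCell6. Against TCell5, where 7.31% of genes were higher and 10.5% lower, 1 of 9 was higher and 6 were lower, 3 of these under 10 CPM in TCell4. Hhex (7.22 CPM), Bcl11a (17.05), Mef2c (5.38) and Cd44 (5.84) were the other lower genes, with ratios of 0.245, 0.378, 0.375 and 0.408. Kit itself, the antigen of the sort, was at 35.33 CPM in TCell4, with a ratio of 0.852 to the other T clusters that fell to 0.376 without the few cells rich in mast cell RNA described below, and at 499.5 CPM in Mast1, the library's largest mast cell cluster. The antibody to the Kit protein (CD117) gave 0 counts in the library, so protein and transcript could not be compared.

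T cell receptor genes were read by locus. Every TCell4 cell held UMIs of a β constant gene, whereas Trac, the α constant gene, had 0 UMIs in the 296 cells. Neither set TCell4 apart, as β constant UMIs were in 98.8 to 100% of cells of each other T cluster and 25.1% of Mast1. The α constant gene was found in 0.206 to 0.624% of TCell1, TCell2 and TCell3 cells. Trac was at 17.13 CPM in TCell5 and 9.62 in TCell6. Of the β locus, Trbc1 was at 1051.21 CPM and Trbc2 at 2187.20 in TCell4. Of the γ locus, Tcrg-C1 was at 482.75 CPM, Tcrg-C2 at 448.65 and Tcrg-C4 at 44.24, and the δ constant gene Trdc was at 241.76. These constant genes differed less than 2-fold from the other T clusters, and within the γ locus and within the β locus near-identical copies make the split between genes uncertain. Constant genes are also transcribed before they are joined, so their UMIs do not show a receptor. Of variable segments, Trgv2 led with 168 UMIs, before Tcrg-V4 with 18, Trbv13-2 with 13, Trbv12-2 with 10 and Trav17 with 8, which are too few to rank.

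Shares of cells were compared after cells had been thinned to 5000 UMIs, a depth that all 296 TCell4 cells reached. Cells with fewer UMIs were left out, 1 in TCell1, 5 in TCell2, 5 in TCell3, 1 in TCell5 and 8 in Mast1. Ptcra was then found in 268 TCell4 cells (90.5%, 86.6 to 93.6%), against 81.6% of TCell1, 49.0% of TCell6, 22.3% of TCell3, 18.7% of TCell2 and 1.62% of TCell5. Mast1 cells, which should lack Ptcra, held it in 3.02% (26 of 861 cells). Of these 26 cells 20 also held Cd3d, which was found in 5.81% of Mast1, so the T cell transcripts of Mast1 lay together in few cells, and where they came from was not tested. Ptcra and Rag1 were found together in 202 TCell4 cells (68.2%), and Ptcra with a δ constant UMI in 158 (53.4%). A total of 152 cells (51.4%, 45.5 to 57.2%) held Ptcra with β, γ and δ constant UMIs at once. The share was 42.9% (38.7 to 47.2%) in TCell1, which overlapped TCell4, 22.2% in TCell6, 13.4% in TCell3 and 1.05% in Mast1. TCell4 and TCell1 cells thus often carried transcripts of several receptor loci together. Trgv2 was found in 35 TCell4 cells (11.8%), in 11.8% of TCell6, 9.85% of TCell1 and 0 of 861 Mast1 cells. Kit was found in 30 TCell4 cells (10.1%), and without thinning in 78 (26.4%). Without thinning, Ptcra was found in 294 cells (99.3%), Rag1 in 290 (98%) and Trgv2 in 102 (34.5%). Trgv2 was then also found in 9 of 869 Mast1 cells (1.04%).

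The γδ T list had 0 higher and 2 lower of 8 measured genes. The lower ones were Maf (7.83 CPM) and Zbtb16 (2.30 CPM), factors of innate-like T cells, which TCell5 held at 136.29 and 65.91 CPM and the other 4 clusters at 4.81 to 9.55 and 3.94 to 16.27 CPM. Of 9 measured innate lymphoid genes 3 were lower, Rora, Arg1 and Zbtb16, and of 4 measured cytotoxic genes 2 were, Klrd1 and Ccl5, all of them under 10 CPM in TCell4 and measured through the other clusters. Klrd1 had 0 UMIs in TCell4, at least 44.99-fold lower than in the other T clusters at a floor of 3 UMIs over the cluster, and Rora had 2.30 CPM. TCell5 held Klrd1 at 323.96 CPM and Rora at 325.82, and the other 4 clusters held Klrd1 at 0 to 0.62 and Rora at 1.48 to 1.97 CPM. Gzma, a granule protease, was abundant in TCell4 at 1457.93 CPM, with a ratio of 0.923. The list of immature CD8 and CD4+CD8+ thymocyte genes had 0 higher and 1 lower gene of 9 measured. That gene was Ccr9, a homing receptor, at 2.46 CPM against 128.10 in TCell5, 29.96 in TCell6 and 0.97 to 7.97 in the other 3. Cd8a (0.31 CPM), Cd8b1 (0.77 CPM) and Cd4 (0.61 CPM) were near 0 in TCell4. In the paper's gates Lineage- cells have low surface CD4 and CD8, so the sort itself selects for low levels. Arpp21, a thymocyte RNA-binding protein, was at 489.82 CPM, 1.91-fold above the other T clusters.

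**Figure D2:**
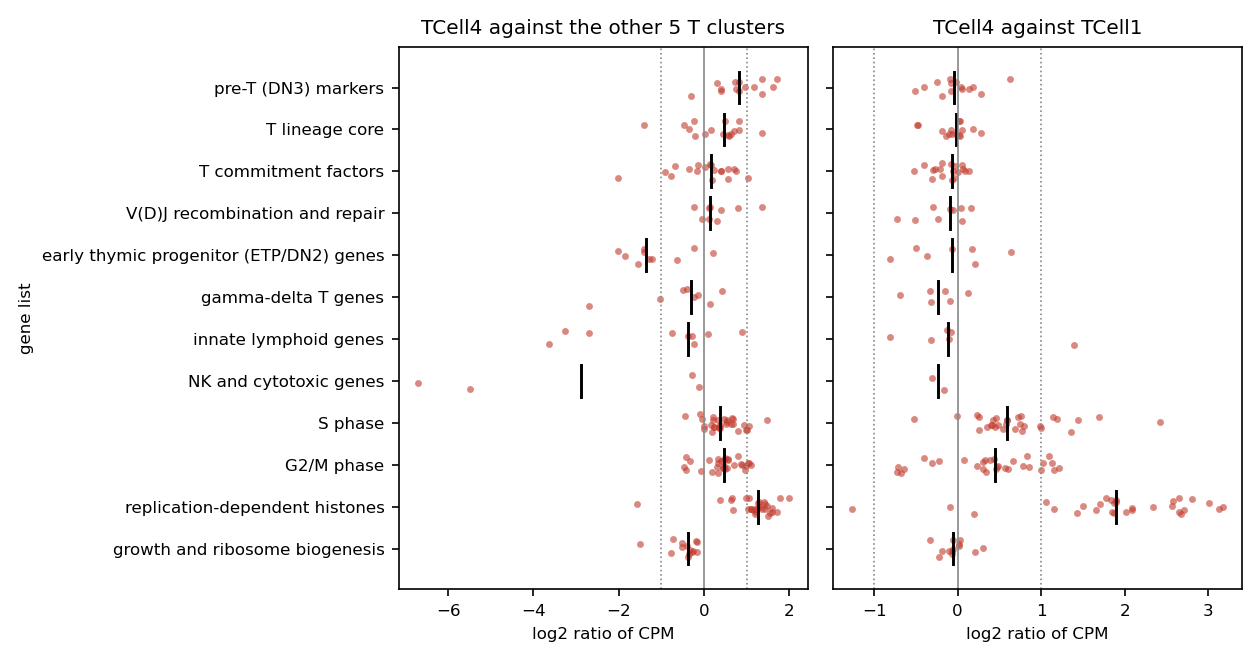
Log2 ratio of CPM of each measured gene (points) in 12 gene lists, for TCell4 against the other 5 T clusters together (left) and against TCell1 (right). Black bars are list medians and dotted lines mark 2-fold. Early thymic progenitor genes other than Fcer1g lie left of 0 in the first comparison, with 7 of 10 lower (4 of them under 10 CPM in TCell4). In the second only the S phase, G2/M phase and histone lists have more than 1 gene at least 2-fold higher.

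The nearest cluster to TCell4 was TCell1. Over 7275 genes, log2(CPM + 1) correlated across genes with r = 0.982 in TCell1, 0.965 in TCell3, 0.95 in TCell6, 0.932 in TCell2 and 0.861 in TCell5. Genes are not independent replicates, and all clusters share a library. TCell4 and TCell1 differed at least 2-fold in 92 of these genes, and TCell4 and TCell5 in 954. Against TCell1, 7546 genes were measured, of which 105 (1.39%) were higher and 21 (0.278%) lower. None of the 14 measured pre-T genes, 15 T lineage genes, 18 commitment factors or 7 ETP/DN2 genes was called, though 3 of the 7 were lower without the cells above 1000 CPM of Cma1, the mast cell protease gene described below. With those cells left out, 40 of all 7527 measured genes were lower than in TCell1 and 101 higher. With all cells kept, Ptcra was 1.14-fold above TCell1 and Rag1 0.942-fold.

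The histone and cell cycle lists held most of the list genes that differed between TCell4 and TCell1. Of 30 measured replication-dependent histone genes, 27 were higher, 1 was lower, and the median ratio was 3.72, with 15 of the 27 under 10 CPM in TCell1. Hist1h1b, a linker histone that packs nucleosomes, was at 1725.18 CPM in TCell4 and 190.09 in TCell1, 9.08-fold (8.66 to 9.52) apart. Hist1h1a was 8.78-fold higher, the core histones Hist1h2ap and Hist1h2ae 6.55-fold and 6.39-fold, and the linker Hist1h1e 6.26-fold. Many histone genes are near-identical copies, so the split of reads among them is uncertain. Of the 30 measured S phase genes 6 were higher and 0 lower, E2f8 (5.38-fold), Rrm2 (3.22-fold), Clspn (2.71-fold), Pclaf (2.56-fold) and Tyms (2.21-fold) among them. These encode an E2F factor, a nucleotide reductase subunit, a fork checkpoint protein, a PCNA partner and thymidylate synthase. E2f8 was at 8.99 CPM in TCell1 and so measured through TCell4. Of 30 G2/M genes 5 were higher and 0 lower (median ratio 1.37), among them the topoisomerase Top2a (2.14-fold) and the motor Kif11 (2.22-fold). Some mitotic genes lay below TCell1 without a call, with log2 ratios of -0.727 (Cenpa), -0.710 (Cdc20), -0.676 (Ccnb2) and -0.647 (Ccnb1). Fbxo5, which restrains the anaphase-promoting complex from S phase on, was 3.93-fold higher.

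Histones were also the list with the most genes above the other T clusters together, with 24 of 30 higher, 1 lower and a median ratio of 2.40, where 9 of the 24 were under 10 CPM in the other clusters. By single cluster, 27 of 30 were higher and 1 lower against TCell1 and against TCell2, where 1.39% and 5.88% of all genes were higher. Against TCell5, where 7.31% of genes were higher and 10.5% lower, 13 of 30 were higher and 1 lower (median ratio 1.95). Of the 13, 5 were under 10 CPM in TCell5. Against TCell3, where 2.17% of genes were higher and 1.56% lower, 2 of 30 histones were higher and 0 lower (median ratio 1.59). Against TCell6, where 6.34% of genes were higher and 1.45% lower, 1 of 32 was higher and 0 lower (median ratio 1.37). This gene, and 1 of the 2 against TCell3, was under 10 CPM in that cluster and measured through TCell4 alone. Of the 30 S phase and 30 G2/M genes, 0 were higher or lower against TCell3 and 0 against TCell6, while 9 and 3 were higher against TCell5. In clusters made again 9 histone, 26 G2/M and 0 S phase genes were higher, while more genes of any kind were higher too, as given below. Those clusters mix TCell4 with other cells, so these counts need not hold for TCell4 itself. Ratios of the 24 higher genes went up to 4.00, in Hist2h2aa1, which was at 17.20 CPM. Hist1h1b was at 966.98 CPM in TCell3, 1080.31 in TCell6, 698.56 in TCell5 and 69.70 in TCell2, all under TCell4. The lower gene was Hist1h2bc at 16.59 CPM (ratio 0.339). Hist1h1b, Hist1h1a and Hist1h1e, the linker histones most above TCell1, are shown by the 250 bases before their start sites in GRCm38.p6, on the gene's strand 5′ to 3′. Capitals mark the H1 box AAACACA and CCAAT on either strand, both known elements of H1 promoters. The windows are chr13:21780626-21780875 (minus strand, RefSeq symbol H1f5), chr13:23763418-23763667 (plus strand, H1f1) and chr13:23622559-23622808 (minus strand, H1f4).

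Hist1h1b: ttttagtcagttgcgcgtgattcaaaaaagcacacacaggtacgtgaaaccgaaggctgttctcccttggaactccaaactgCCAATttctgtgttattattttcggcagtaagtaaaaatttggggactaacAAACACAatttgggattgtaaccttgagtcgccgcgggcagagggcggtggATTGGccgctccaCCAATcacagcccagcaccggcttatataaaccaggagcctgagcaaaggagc

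Hist1h1a: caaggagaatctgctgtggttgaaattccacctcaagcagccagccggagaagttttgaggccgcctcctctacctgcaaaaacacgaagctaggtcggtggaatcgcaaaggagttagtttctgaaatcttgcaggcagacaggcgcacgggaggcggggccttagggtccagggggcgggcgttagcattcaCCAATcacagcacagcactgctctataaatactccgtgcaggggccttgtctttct

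Hist1h1e: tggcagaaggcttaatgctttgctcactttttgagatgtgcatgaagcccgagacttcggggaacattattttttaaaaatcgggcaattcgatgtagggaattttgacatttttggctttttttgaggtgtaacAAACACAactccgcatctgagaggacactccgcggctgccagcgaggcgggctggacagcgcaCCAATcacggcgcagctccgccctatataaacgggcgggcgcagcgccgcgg

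Hist1h1b held 1 H1 box and 3 CCAAT matches, Hist1h1e 1 of each, and Hist1h1a 1 CCAAT and no H1 box match in this window. CCAAT stood in 33.8% of all 32851 windows and the H1 box in 6.25%. Of the 24 histone genes higher in TCell4, 21 had a window, of which 20 (95.2%) held CCAAT and 6 (28.6%) the H1 box. Of all 30 measured histone genes, 26 had a window, of which 24 (92.3%) held CCAAT and 6 (23.1%) the H1 box. The 5 windows of the measured histone genes that were not higher held CCAAT in 4 and the H1 box in 0, too few to set against the 21.

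At an equal depth of 5000 UMIs per cell, histone transcripts took 0.441% ± 0.20 (SD over 296 cells) of UMIs in TCell4. They took 0.283% in TCell6, 0.262% in TCell3, 0.171% in TCell5, 0.0710% in TCell1 and 0.0529% in TCell2. The histone share was above the 95th percentile of TCell1 (0.28%) in 228 of 296 TCell4 cells (77.0%), so most members shared it. S phase genes took 0.704% ± 0.193 of UMIs in TCell4, the highest mean, with 0.636% in TCell6 and 0.586% in TCell3. G2/M genes took 0.839% ± 0.423, between TCell6 (0.855%) and TCell3 (0.599%). In the histone, S phase and G2/M lists alike, the SD over TCell4 cells covers the means of TCell6 and TCell3. These SDs give the spread of single cells.

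**Figure D3:**
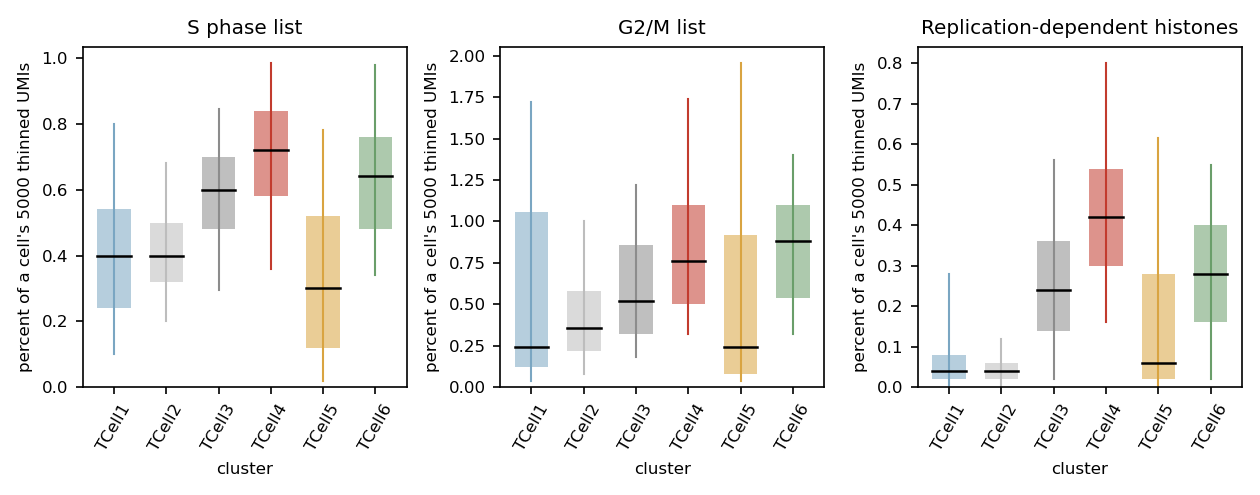
Share of a cell's 5000 thinned UMIs from the S phase, G2/M and histone lists, in percent, by T cluster. Black bars are medians, boxes the 25th to 75th and lines the 5th to 95th percentile over cells. The TCell4 median of the histone list was 0.42%, against 0.04% in TCell1, and its 5th percentile of 0.16% lay above the TCell1 75th percentile of 0.08%.

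By the deposited cell cycle calls, 170 TCell4 cells (57.4%) were in S, 126 (42.6%) in G2M and 0 in G1, with an exact interval up to 1.24%. TCell6 also had 0 cells in G1, TCell3 had 3, TCell2 7, TCell5 42 and TCell1 49. Levels in the G2M cells over those in the S cells showed which genes moved with the phase within TCell4. Cenpa (5.22), Cdc20 (4.66), Ube2c (4.22) and Ccnb1 (3.93), genes of mitosis, had the highest of these ratios, and the replication helicase gene Mcm5 had 0.62. Ptcra (1.03), Cd3d (0.99) and Il2ra (1.02) had intervals that held 1, whereas Rag1 was at 0.90 (0.82 to 0.98). Other pre-T genes were higher in G2M cells, with 1.30 (1.08 to 1.56) for Rag2, 1.32 (1.15 to 1.51) for Dtx1 and 1.16 (1.07 to 1.27) for Notch1, and Trgv2 had 1.37 (1.003 to 1.88). Bcl11b (1.65) and Lef1 (1.53) were above 1 in G2M cells. Hist1h1b was nearly as high in the G2M cells (1618.35 CPM) as in the S cells (1814.96 CPM), a ratio of 0.89. The phase calls rest on the same transcripts, so the ratios of cycle genes describe the calls.

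Antibodies were not used to make the clusters, and 11 of the 29 antibodies gave at least 1 count per cell on average in the library. Counts were scaled by centered log-ratio (CLR) and a cell above 1 was called positive. CD90.2 (Thy1), an antigen of thymocytes, gave a median of 124 counts in TCell4 with a lowest cell of 28, and all 296 cells were positive. The medians were 184 in TCell6, 103 in TCell1, 44 in TCell3, 40 in TCell5, 23 in TCell2 and 1 in Mast1. On the CLR scale TCell4 lay 0.888 SD of single cells above the other T clusters, 0.479 SD above TCell1 and 0.856 SD below TCell6. Cells above the TCell4 median of CD90.2 had 304.3 CPM of Thy1 and the others 297.7, so the transcript was at a like level in both.

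CD150 (Slamf1) and Sca-1 (Ly6a), stem cell antigens that some lymphocytes also carry, were found at low counts in a larger share of TCell4 than of the other T cells together. CD150 was positive in 28.4% (23.3 to 33.9%) of TCell4 cells, 32% of TCell6, 20.8% (17.4 to 24.5%) of TCell1 and 8.64 to 10.2% of the other 3. Sca-1 was positive in 33.8% (28.4 to 39.5%) of TCell4 cells, 27.3% (23.6 to 31.2%) of TCell1 and 7.84 to 20.8% of the other 4. For both antibodies the intervals of TCell4 and TCell1 overlapped. TCell4 lay 0.413 SD and 0.361 SD above the other T clusters, and both differences changed sign when an antibody was taken as a share of the cell's antibody counts (-0.0490 and -0.0994 SD), in which CD90.2 weighs heavily. Ly6a was at 40.0 CPM (32.2 to 49.3) in cells above the median Sca-1 count and 21.2 (17.1 to 26.1) in the others. Slamf1 had 17 and 10 UMIs in the cells above and not above the median CD150 count, with intervals that overlapped. CD48, an antigen of most lymphocytes, had a median of 13 counts in TCell4 and 12 in TCell1. CD27 was positive in 39.9% of TCell4 and 48.2% of the other T cells, and CD43 in 36.8% and 26.9%. On the CLR scale CD43 lay 0.295 SD above the other T clusters, which turned to -0.657 SD as a share of the antibody counts. CD135, CD93, Ly6C and IL33R lay between -0.0392 and 0.0258 SD from the other T clusters.

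**Figure D4:**
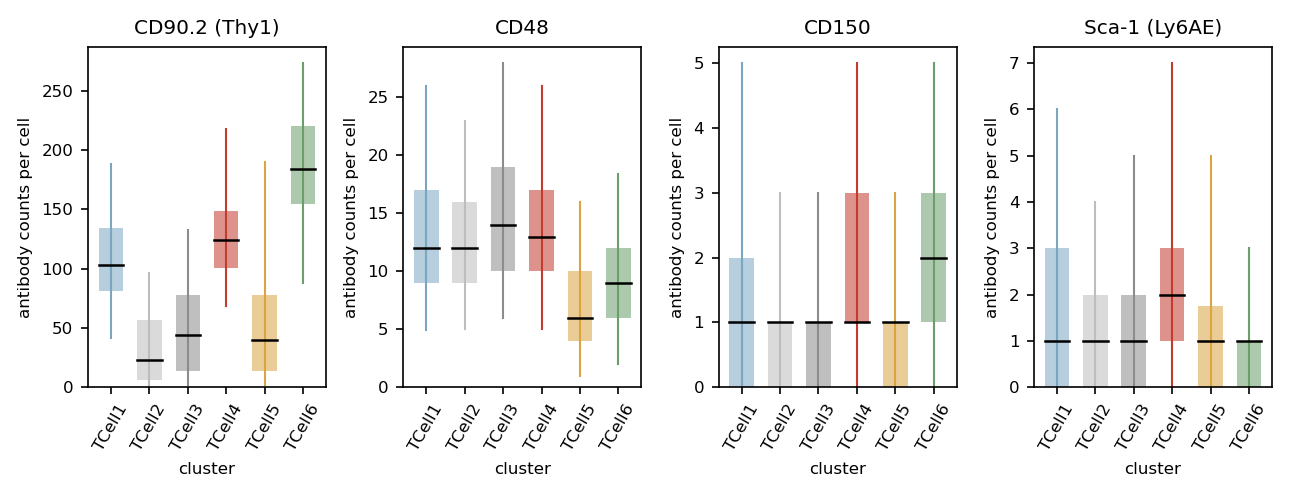
Antibody counts per cell of CD90.2, CD48, CD150 and Sca-1 in the 6 T clusters. Black bars are medians, boxes the 25th to 75th and lines the 5th to 95th percentile over cells. TCell4 had a CD90.2 median of 124, under TCell6 (184) and over TCell1 (103), and the only Sca-1 median of 2.

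Mast cell transcripts stood at the top of the TCell4 list and came from few of its cells. Mcpt4, a mast cell protease, was 5.01-fold above the other T clusters (136.4 against 27.2 CPM) and Hdc, the histamine enzyme, 3.64-fold, and 5 of 7 measured mast cell markers were higher, the others being Cma1, Tpsb2 and Gata2, the last measured through TCell4 alone. All 10 mast cell markers had UMIs in TCell4, and their summed level was 4183 CPM in TCell4, 962 to 3717 in the other T clusters and 97559 in Mast1. In the median TCell4 cell Cma1 was at 87.6 CPM, within the medians of 71.3 to 91.9 of all 6 T clusters. A total of 18 TCell4 cells (6.08%, 3.64 to 9.44%) had over 1000 CPM of Cma1, the highest with 33367 CPM, and held 95.1% of the cluster's Cma1 UMIs. These 18 cells had a median of 34028 UMIs against 19982 in the other 278, a median of 27 counts of CD16/32 against 1, and 316.3 CPM of Ptcra against 629.9. Mast1 cells had median values of 28 counts of CD16/32 and 48382 CPM of Cma1. A doublet caller marked 20 of the 4752 cells (0.421%), and 2 of them in TCell4, both among the 18. Its calls removed no cell from the values reported. The part that doublets play in these cells was not tested beyond these values.

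**Figure D5:**
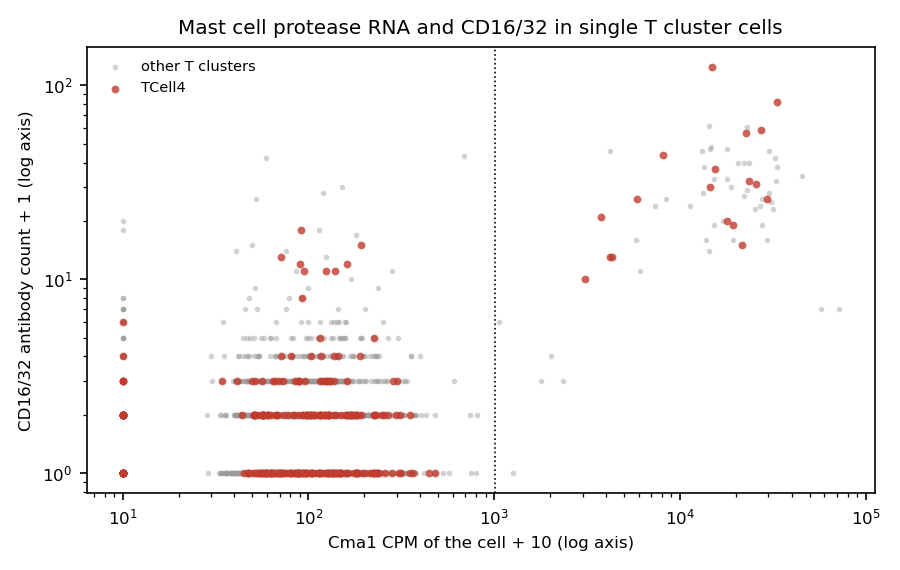
CD16/32 antibody count + 1 against Cma1 CPM + 10 in single T cluster cells, both on log axes, with TCell4 in red, the other T clusters in grey and a dotted line at 1000 CPM. The 18 TCell4 cells right of the line had a median CD16/32 count of 27, against 1 in the other TCell4 cells.

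Without the T cluster cells above 1000 CPM of Cma1, 0 of 5 measured mast cell markers were higher and 1 was lower, Cpa3 (ratio 0.452). Mcpt4 had a ratio of 0.667. The T cell lists kept their directions, with 6 of 14 pre-T genes and 25 of 31 histone genes higher, and the S phase and G2/M lists each had 5 higher genes in place of 3. All 10 measured ETP/DN2 genes were then lower, including Kit, whose ratio went from 0.852 to 0.376. With all cells kept, 4 of the 10 measured ETP/DN2 genes were under 10 CPM in TCell4 and could come out only lower. Likewise, 2 of the 5 higher pre-T and 9 of the 24 higher histone genes could then come out only higher. How many were bound in this way without the Cma1-rich cells is not given here. Over all 7518 genes measured without those cells, 123 were higher and 128 lower. Of the earlier calls, 98 of the 118 higher and 87 of the 92 lower remained. Among genes of at least 100 CPM, the 10 furthest above the other T clusters then began with Hist1h1a (3.65), Hist1h1b (3.43) and Ptcra (3.18), and no mast cell gene was among them.

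Markers of other blood cells were at lower levels in TCell4 than in the non-T cells. Summed B lineage markers were at 80.6 CPM (641.3 in non-T cells), neutrophil markers at 10.6 CPM (3321), macrophage markers at 172.3 CPM (797.2), dendritic cell markers at 266.0 CPM (2006) and stem cell markers at 83.6 CPM (549.3). Erythroid markers were at 13.4 CPM (45.4). Stromal markers were at 37.2 CPM, level with the 37.3 CPM of non-T cells. Of the 10 markers in each list, 0 UMIs were found for 0 B lineage, 3 neutrophil, 0 macrophage, 2 dendritic, 1 stem cell, 3 erythroid and 7 stromal markers. Of these lists, measured genes higher and lower than in the other T clusters were 1 (Vpreb1) and 1 (Ighm) of 3 for B cells, 0 and 2 of 2 for neutrophils, and 0 and 0 of 2 for macrophages. For dendritic cells they were 1 (Cd74) and 1 (Ccr9) of 4, for stem cells 1 (Gata2) and 2 (Mycn and Cd34) of 4, for erythroid cells 0 and 1 of 1, and for stromal cells 0 and 0 of 1. Every lower gene of these lists was under 10 CPM in TCell4 and measured through the other clusters, and Vpreb1 and Gata2 were under 10 CPM in the other clusters and measured through TCell4. Without the cells above 1000 CPM of Cma1, 0 dendritic and 0 stem cell genes were higher, and 1 of the 2 macrophage genes was lower. Among genes of at least 100 CPM in the higher group, Hbb-bt, a β-globin gene, was furthest below the other T clusters, at 8.14 against 149.4 CPM. It was at 284.9 CPM in TCell2, 213.3 in TCell3, 29.1 in TCell1 and 0.87 to 1.12 in TCell5 and TCell6. Cd52, Nrgn and Ifitm1 were the only other lower genes that reached 100 CPM, with ratios of 0.213, 0.285 and 0.356.

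Against the non-T cells of the library, 8083 genes were measured, of which 957 (11.8%) were higher and 1185 (14.7%) lower in TCell4. The T lineage list had 13 higher genes of 15, the pre-T list 13 of 14, and the ETP/DN2 list 12 lower of 12. Of these, 3 T lineage and 7 pre-T genes were under 10 CPM in non-T cells and 6 ETP/DN2 genes in TCell4. After Ptcra and Cd3d the largest ratios were those of Akr1c12 (17.90), Gm4632 (17.49), Myl10 (16.96), Dtx1 (16.81), 9130015A21Rik (16.65), Dgkeos (16.27), Themis (16.24) and Tcrg-C2 (15.85). Akr1c12, a reductase gene, was at 205.36 CPM in TCell4, and Myl10, a myosin light chain gene, at 202.13.

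Against TCell2, in which the ETP/DN2 genes were highest of the large T clusters, 7565 genes were measured, of which 445 (5.88%) were higher and 208 (2.75%) lower. Of the pre-T list 10 of 14 were higher, of the T lineage list 8 of 15, of the G2/M list 17 of 30, of the S phase list 9 of 30 and of the histones 27 of 30. Of the ETP/DN2 list 7 of 10 were lower, 4 of them under 10 CPM in TCell4, and 18 of the 27 histones, 3 of the 10 pre-T, 2 of the 8 T lineage, 1 of the 17 G2/M and 1 of the 9 S phase genes were under 10 CPM in TCell2. Ptcra differed 11.7-fold and Cd3d 9.28-fold, whereas Il2ra differed 1.23-fold.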

How the data were processed

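Per the labels and the paper's methods, 10x Genomics 3′ v3.1 and TotalSeq-A antibody libraries were made from sorted, pooled BM cells, and the authors counted reads with Cell Ranger 3.1.0 on mm10 and clustered cells in Seurat 3.1.5 (R 4.0). The authors deposited raw UMI counts for 20275 genes (those found in enough cells) and 56201 filtered cells, raw antibody counts for 29 antibodies, and a cell table with library, cluster code and phase. In that table the deposited mitochondrial share is a fraction, and the deposited S, G2M and hscScore values are scores. Of its columns, 6 were not used. The authors clustered variable genes after regressing out UMIs, mitochondrial share and cell cycle scores. The 3′ kit captures poly(A) tails, which most histone mRNAs of S phase lack, so histone levels are those of the RNA captured.

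The clusters and the lists were chosen with earlier results of these data known. UMIs of a cluster were summed to CPM with exact Poisson intervals, ratios carry a conditional binomial interval and shares a Clopper-Pearson interval, all at 95%. With 1 library, no p-value was computed. Lists were 25 hand-written gene lists, the histone family among them. Genes named are the markers, members of these lists and of the receptor segments, genes of the antibody antigens, and the 10 with the largest ratio each way against the other T clusters and above non-T cells. These needed 100 CPM and 50 UMIs in the higher group without ribosomal protein genes, mitochondrial genes or Gm42418. Genes with such ratios to TCell1 (Fbxo5, Rrm2) are members or already on that list. Cells were thinned to 5000 UMIs for shares and cycle lists, and cells with fewer were left out. Antibody counts were scaled by CLR per antibody over the library. Doublets were called with Scrublet and the library was clustered again (2000 variable genes, 30 components, 20 neighbours, Leiden resolution 1) in scanpy 1.11.5 with leidenalg 0.10.2. This clustering regressed out no UMI, mitochondrial or cell cycle score. Other steps used Python 3.11.15, numpy 2.4.6, scipy 1.17.1, pandas 2.3.3 and scikit-learn 1.9.0, and figures matplotlib 3.10.9. The ratio code was checked on simulated counts in which 200 genes had been changed. Promoter windows came from RefSeq tables of GRCm38.p6, the patch release of mm10, matched by symbol.

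The second E16.5 library held 95833532 UMIs, 6510611 of them in TCell4. Alternatives changed how cells were summarised, which UMIs entered the total, the weights of clusters, the minimum level, the fold, the doublets, the clusters, the antibody scale and the thinning. Leaving out cells over 1000 CPM of Cma1 was chosen after seeing the data.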

Additional observations from a re-analysis of the deposited data

How the results depend on the processing

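Only 1 library held TCell4, so leaving out an E16.5 library gave a share of 0 to 6.23%. No paired analysis was possible because TCell4 cells come from 1 library and no result comes from a test. Of 181 alternative values of the 38 summary results, 113 stayed within 1.5 times, the counting interval or, for antibodies, 0.2 SD of the value reported, 61 moved further and 7, all antibodies, changed sign, and of 288 for 48 single genes 163 stayed, 121 moved and 4, of genes called higher, turned to the other side of 1.

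Genes higher than in the other T clusters (118) numbered 426 with no minimum level, 392 at 1.5-fold, 17 at 3-fold and 221 against clusters made again, and genes lower (92) 425, 351, 35 and 144, 142 with the mean of CPM per cell and 175 with clusters weighted equally. At 1.5-fold, higher genes were 5 of the T lineage, 10 of the pre-T, 10 of the S phase and 9 of the G2/M list, and at 3-fold 0, 2, 0 and 0, with 5 histones, 2 mast cell markers and 2 lower ETP/DN2 genes. Weighting clusters equally gave 8 pre-T and 0 G2/M genes higher and 7 innate lymphoid genes lower. The mean of CPM per cell gave 5 S phase, 8 G2/M and 2 mast cell genes higher and 6 innate lymphoid genes lower. The number of all genes higher under either setting is not given here. The counts of higher list genes under them therefore cannot be set against a background share. With no minimum level 8 innate lymphoid genes were lower and 41 histones higher. In clusters made again 9 pre-T, 0 S phase, 26 G2/M, 9 histone and 0 mast cell genes were higher. No new cluster held TCell4 alone, and the one with the most TCell4 cells held 150 of them among 289 cells. These counts therefore describe mixed sets of cells and need not hold for TCell4 itself. The cause of these moves was not tested.

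Without cells over 1000 CPM of Cma1, 5 S phase, 5 G2/M and 0 mast cell genes were higher. Against TCell1 3 of 7 measured ETP/DN2 genes were then lower, as were 40 of all 7527 measured genes. The cycle shares without these cells were 0.722% (S), 0.855% (G2/M) and 0.458% (histones), and CD16/32 reversed from 0.161 to -0.0485 SD. Mcpt4 reversed to 0.667 and Tpsb2 to 0.945 there, and Mcpt4 to 0.974 and Cma1 to 0.897 in clusters made again. As shares of a cell's antibody counts, CD150 (-0.0490 SD), Sca-1 (-0.0994 SD), CD43 (-0.657 SD), CD48 (-0.635), CD135 (-0.360) and CD16/32 (-0.0598) reversed, and CD93 (-0.403), Ly6C (-0.352), IL33R (-0.316) and CD27 (-0.585) moved.

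Depth set the shares of cells. Without thinning and at 2000 UMIs, Ptcra was found in 99.3% and 65.9% of TCell4 cells, Rag1 in 98% and 45.9%, Kit in 26.4% and 6.08%, Trgv2 in 34.5% and 4.39%, and Ptcra with β constant UMIs in 99.3% and 63.5%, with γ in 99.3% and 50.7% and with δ in 86.1% and 20.6%. At 2000 UMIs Ptcra with β, γ and δ constant UMIs at once was found in 15.2% of TCell4 and 15.6% of TCell1 cells.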

Other observations

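Of 14 measured genes of growth and ribosome biogenesis 0 were higher and 1, Mycn, lower than in the other T clusters, through which alone it was measured. Their summed level was 6684 CPM in TCell4, 6846 in TCell1 and 5510 in TCell5, against 8382 in TCell3, 9245 in TCell2 and 12192 in TCell6. Srm, a polyamine enzyme, was at 148.68 CPM in TCell4 and 411.78 in TCell6. Of 10 measured apoptosis regulators 0 were called either way, and the survival gene Bcl2 was at 77.72 CPM. The fetal list summed to 970.7 CPM in TCell4 and 922.8 in TCell1, over the 354.5 to 487.5 of the other 4. Of this list, the imprinted RNA H19 was at 791.94 CPM in TCell4 and 729.52 in TCell1 (ratio 2.28 to the other T clusters) but 144.99 to 267.38 in the other 4, while Hmga2 was lower (5.68 CPM, ratio 0.378, measured through the other clusters alone) and Igf2bp3 was at 80.18 CPM with a ratio of 0.887. Of 13 measured cytokine and trafficking receptors 0 were higher and 4 lower, Ccr9, Klf2, Itgb7 and Cd44, of which 3 were under 10 CPM in TCell4 and measured through the other clusters, and the interleukin 7 receptor gene Il7r was at 103.68 CPM with a ratio of 1.07.

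TCell4 cells entered stem and progenitor gates drawn from 4 antibodies (Sca-1, CD135, CD48 and CD150). The cut was a CLR of 1 for each antibody, set here, so these gates need not match those of the authors. The gate of phenotypic MPP2s, a multipotent progenitor, held 17 TCell4 cells (5.74%, 3.38 to 9.04%) of 64 in the library, and that of phenotypic LT-HSCs, the long-term stem cells, 5 (1.69%) of 28. TCell1 gave 16 and 8 cells. The paper places most of its E16.5 phenotypic MPP2s, over both libraries, in a Mono/Mast cluster. Of the 64 cells in the MPP2 gate drawn here only 22 lay outside the T clusters, so the 2 gates differ in composition. The LT-HSC gate takes CD48-negative cells, yet its 5 TCell4 cells had a median of 10 CD48 counts (13 in all TCell4 cells). The gated TCell4 cells had a median of 4 CD150 counts, and their mean hscScore, a published score of stem cell transcripts, was -0.000130 in the MPP2 gate and -0.000434 in the LT-HSC gate, against 0.00750 in the 22 non-T cells of the MPP2 gate and 0.133 in the 6 of the LT-HSC gate. Gated cells of the other T clusters had means of 0.00566 to 0.0943 in the MPP2 gate and 0.000368 to 0.0368 in the LT-HSC gate. The SD of the score over all TCell4 cells was 0.00807.

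The library was clustered again without regressing out UMIs, mitochondrial share or cell cycle scores, all of which the authors had regressed out. None of the 22 new clusters held TCell4 alone. One new cluster held 150 TCell4 cells (50.7%) beside 129 of TCell1, and another 120 (40.5%) beside 68 of TCell3. Of the first 150 cells 102 were called G2M and 48 S, and of the 120 cells 10 and 110. Ptcra was at 731.2 CPM in the first set and 513.1 in the second, Bcl11b at 649.9 and 305.7, Lef1 at 387.7 and 184.1, and the mitotic gene Cenpf at 289.4 and 68.4, while Hist1h1b (1969 and 1758 CPM) and Cd3g (3501 and 3491 CPM) were alike. A further 12 TCell4 cells fell in a cluster with 46 Mast1 cells.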
